A study of Mus musculus with 6 samples.

Results

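The cardiac lineage transcription factors described here are 10 genes, Gata4, Gata6, Nkx2-5, Mef2a, Mef2c, Mef2d, Tbx5, Tbx20, Hand1 and Hand2. They were taken by symbol from a count table of 23337 genes, all 10 were in it, and 9 had enough reads to be tested. Hand1 was left out by the filter on low counts. The genes encode DNA-binding proteins that act with serum response factor (SRF) at the promoters of heart muscle genes, and the question was how their mRNA levels stood in cardiomyocytes (CMs) that overexpressed SRF.

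The samples were CMs of wildtype mice. Pups received 5e8 vg per g of an adeno-associated virus, AAV9-cTNT-SRF-2A-GFP for SRF-OE and AAV9-cTNT-GFP for the GFP controls, on postnatal day 1. The cTNT promoter, that of cardiac troponin T, limits both transgenes to CMs, and the dose transduces only some of the CMs of a heart. At postnatal day 14 the hearts were digested with collagenase and cells with GFP fluorescence were sorted for RNA-seq in both groups. The purity of the sort was not measured here, and markers of other cell types were present in every library, as given below.

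The labels list 3 libraries a group, but the table holds counts in 5 columns only. Under the header of SRF-OE replicate 1 stand gene lengths in bp, which were used as such. Libraries are called here by the names in the header, and since that header has 6 library names over 5 columns of counts, the file alone cannot show that each name stands over its own library. The total counts were between 14137433 and 23159631 per library. Srf itself (chromosome 17, 46548329 to 46556175, GRCm38) stood at 359.9 and 748 CPM (reads per 1e6 of the library, scaled for its composition) in SRF-OE replicates 2 and 3, at 67.3 and 85.1 CPM in GFP replicates 2 and 3, and at 338 CPM in the library labelled GFP1. That library goes against its label in the overexpressed gene. Its Srf level lay near the lower SRF-OE value, so each comparison below is given for the 5 libraries as labelled and again without GFP1. Srf had a log2 fold change of 1.76 ± 0.71 (SE, edgeR adjusted p = 0.357) over 5 libraries and 2.87 ± 0.37 (SE, adjusted p = 0.044) over 4. Since GFP1 was left out for its Srf level, that choice raised the value over 4. Its adjusted p cannot be read as a test of Srf. The labels call the replicates of a group biological.

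GATA4 and GATA6 are zinc finger proteins, NKX2-5 is a homeodomain protein, TBX5 and TBX20 carry a T-box, HAND1 and HAND2 are basic helix-loop-helix proteins, and the MEF2 proteins share the MADS domain with SRF. In the embryo they set up the heart fields and chambers, and they stay on in CMs after birth. SRF binds A/T-rich CArG boxes, and GATA4, NKX2-5 and myocardin are classic partners that bind with it at genes such as Actc1 and Nppa. Several of the factors are also made outside CMs, for example GATA4, TBX20 and HAND2 in heart fibroblasts and MEF2C in endothelial cells.

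Promoter sequence from RefSeq (GRCm38.p6, windows of 250 bases before to 50 after a start) was matched by symbol for 6 of the 10 genes, in 8 windows, since Mef2c has several starts. The windows of Nkx2-5, Mef2a, Mef2c, Mef2d, Tbx20 and Hand2 were searched on both strands for the CArG box, the MEF2 motif, AGATAA, a site of GATA factors, TNAAGTG, a site of NKX2-5, AGGTGTGA, a site of T-box factors, and GGGCGG, the GC box. None of these motifs lies within another. Gata4, Gata6, Tbx5 and Hand1 are only named here. The Hand2 sequence is shown because Hand2 had the largest difference between the groups, and the Mef2a start because it was the single member window with a MEF2 motif. The capitals mark the AGATAA motif, read on the minus strand as TTATCT, in Hand2 (chr8:57320733-57320982, plus strand) and the MEF2 motif in Mef2a (chr7:67372841-67372870, minus strand).
Hand2: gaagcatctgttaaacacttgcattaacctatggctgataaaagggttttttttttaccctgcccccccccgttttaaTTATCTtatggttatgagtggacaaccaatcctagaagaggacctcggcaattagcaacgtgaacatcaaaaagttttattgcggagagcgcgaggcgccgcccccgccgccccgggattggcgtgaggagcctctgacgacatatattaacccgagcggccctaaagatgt
Mef2a: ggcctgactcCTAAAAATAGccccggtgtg

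The AGATAA letters of Hand2 lie at -172 to -167 from the start of transcription, and 11.2% of 32851 promoter windows of the same length hold that motif. The Hand2 stretch also holds GGGCGG on the minus strand at -74 and at -65. The MEF2 motif of Mef2a runs from -2 to 7 across the start, and 3.19% of all windows hold one. The GC box was found in windows of Mef2c, Mef2d, Tbx20 and Hand2, against 35.7% of all windows. A CArG box was in 0 of the 8 member windows and in 1.63% of all windows, and TNAAGTG and AGGTGTGA, in 11.5% and 1.28% of all windows, were in none of the 8 either. These are matches of letters in short windows and say nothing of binding.

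Levels between genes were compared as CPM per kb of gene length, averaged over the 5 libraries. Gata4 was the most abundant member, at 89.8 CPM per kb (range 72.7 to 103.6), above 94.5% of tested genes. Mef2a followed at 69.6 (59.7 to 84.0), then Nkx2-5 at 46.0 (41.7 to 49.3), Mef2d at 45.5 (37.3 to 50.4) and Gata6 at 36.8 (25.7 to 44.4), each above at least 86.5% of tested genes. A lower tier held Tbx20 at 16.2 (10.8 to 21.3), Mef2c at 15.1 (14.4 to 15.6), Hand2 at 12.8 (6.92 to 20.6) and Tbx5 at 8.32 CPM per kb (4.49 to 12.8), the last near the middle of tested genes, above 58.4% of them. The ranges of neighbours in this order overlapped except between Mef2a and Nkx2-5 and between Gata6 and Tbx20, where every library of the first lay above every library of the second. Gata4 was above Mef2a in 5 of 5 libraries in spite of the overlap of their ranges, whereas Nkx2-5 was above Mef2d in only 3 of 5 and Tbx20 above Mef2c in only 3 of 5.

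**Figure D1:**
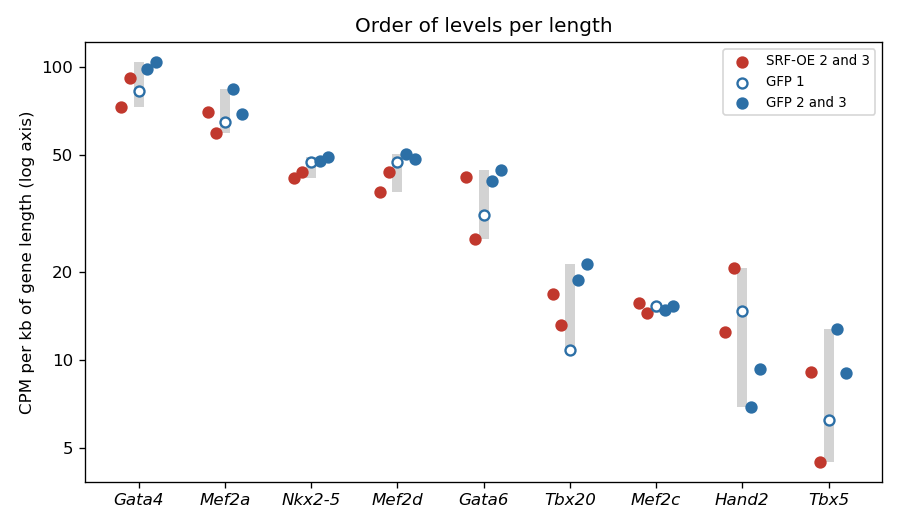
Levels of the 9 tested cardiac lineage transcription factors in CPM per kb of gene length (log axis), in order of their mean over 5 libraries. Each point is a library, red for SRF-OE, blue for GFP and hollow for the library labelled GFP1, and the grey bar spans the range, so that a gap between tiers is seen between Gata6 and Tbx20.

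Hand1, the factor of the left ventricle in the embryo, is on chromosome 11 (57828705 to 57832818) and was hardly detected. It had 2 counts in each SRF-OE library, 0 in the library labelled GFP1 and 1 count each in GFP replicates 2 and 3. All of these lie under 3 counts, which correspond to 0.131 to 0.237 CPM in these libraries, so no fold change is given, and a difference in Hand1 was not detectable at this depth.

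Hand2, the factor best known from the right ventricle of the embryo, was the 1 tested member with a higher mean in SRF-OE under each alternative tried. Its level was 27.8 and 46.1 CPM in SRF-OE replicates 2 and 3. In GFP replicates 2 and 3 it was 15.5 and 20.8 CPM, against 32.9 CPM in the library labelled GFP1. Both SRF-OE libraries lay above GFP replicates 2 and 3, and GFP1 lay between the 2 SRF-OE libraries, so the groups overlapped as labelled and did not overlap without it. These levels rest on 263 to 1054 reads per library. SRF-OE averaged 36.9 ± 12.9 CPM (SD, n = 2) and the 3 GFP libraries 23.0 ± 8.93 CPM (SD, n = 3). This made a log2 fold change of 0.68 ± 0.35 (SE) over 5 libraries with a 95% interval of -0.16 to 1.53 and an edgeR adjusted p of 0.409. Without GFP1 the control mean was 18.1 ± 3.75 CPM (SD, n = 2) and the log2 fold change 1.04 ± 0.28 (SE), a fold of 2.06, with a 95% interval of 0.35 to 1.73 and an edgeR adjusted p of 0.0833. Hand2 did not pass the cutoff of 0.05 in either fit. DESeq2 on the 4 libraries placed it past the cutoff (adjusted p = 0.00694), and over the alternatives that gave one the adjusted p ranged from 7.92e-06 to 0.846. The log2 fold change came down to 0.26 without SRF-OE replicate 3.

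Hand2 was also read relative to Gata4 within each library, a ratio that scaling leaves as it is and in which the lower mean of Gata4 in SRF-OE has a part. The log2 ratio of Hand2 reads to Gata4 reads was -3.15 and -2.75 in SRF-OE, -3.10 in the library labelled GFP1, and -4.43 and -4.08 in GFP replicates 2 and 3. Both SRF-OE libraries were above GFP replicates 2 and 3, and GFP1 was slightly above SRF-OE replicate 2. As a share of the summed CPM per kb of all 10 genes, Hand2 made up 3.92% and 6.51% in SRF-OE, 4.59% in GFP1 and 1.85% and 2.51% in the other GFP libraries. Hand2 lies on chromosome 8, 57320983 to 57324633 of GRCm38, and 461 bp of its exons are shared with Hand2os1, an antisense transcript not analysed here. The SMART-Seq and Nextera kits do not mark strand, so reads from the 2 genes cannot be told apart in the shared stretch.

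**Figure D2:**
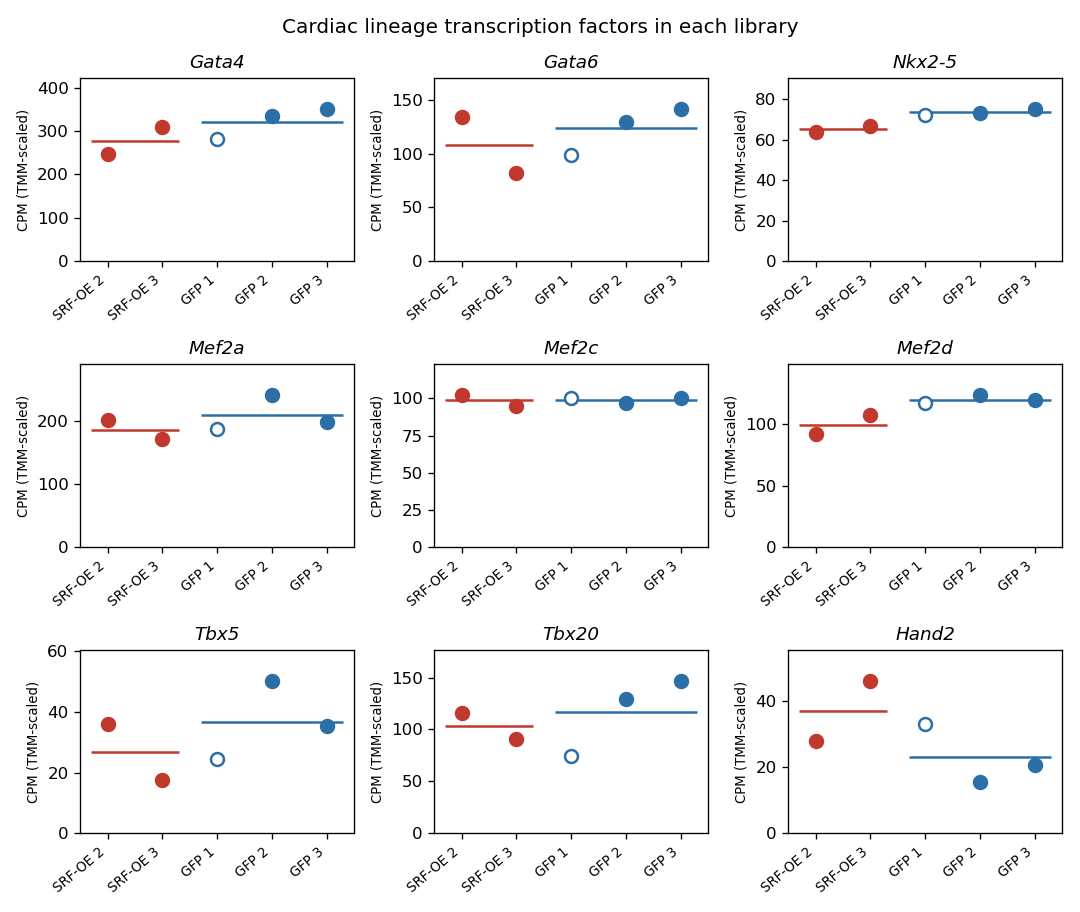
Level of each of the 9 tested factors in each library, in CPM on an axis that starts at 0. Points are single libraries (red SRF-OE, blue GFP, hollow the library labelled GFP1) and lines are group means, with Hand2 as the 1 gene whose SRF-OE mean (36.9 CPM) is above its GFP mean (23.0 CPM).

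TBX5, a T-box factor of the atria, left ventricle and conduction system, was the member furthest below 0. Tbx5 (chromosome 5, 119832668 to 119885219) was at 35.9 and 17.7 CPM in SRF-OE replicates 2 and 3, at 24.6 CPM in the library labelled GFP1, and at 50.3 and 35.5 CPM in GFP replicates 2 and 3. The SRF-OE libraries differed from each other by more than the groups did, and they overlapped GFP with and without GFP1. The log2 fold change was -0.46 ± 0.39 (SE, edgeR adjusted p = 0.583) over 5 libraries and -0.68 ± 0.35 (SE, adjusted p = 0.258) over 4, with 95% intervals of -1.39 to 0.47 and -1.54 to 0.18. It came to -1.06 without SRF-OE replicate 2, to -0.05 without SRF-OE replicate 3 and to -0.17 without GFP replicate 2.

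Genes of the atrial myocardium varied widely between the same libraries, within both groups. These genes were chosen after their values were seen. Sln, a regulator of the calcium pump in atrial muscle, was at 64.8 and 2.71 CPM in SRF-OE replicates 2 and 3, at 8.84 CPM in GFP1, and at 74.0 and 0.237 CPM in GFP replicates 2 and 3. Bmp10, a ligand made in the right atrium, was at 38.7, 0, 3.99, 34.8 and 0 CPM in that order, and Myl7, the atrial light chain, at 455, 289, 125, 284 and 1.18 CPM. In each group replicate 2, with the most Sln and Bmp10, also had the most Tbx5, but the order did not hold in every comparison. The library labelled GFP1 had more Sln, Bmp10 and Myl7 and less Tbx5 than GFP replicate 3. Myl4 (158 against 191 CPM) and Nppa (1641 against 1910.1 CPM) were lower in the SRF-OE library with more Tbx5. Between GFP replicates 2 and 3 both were higher in replicate 2, which had more Tbx5. There Myl4 was at 115 against 6.08 CPM and Nppa at 1196 against 177 CPM. The part of atrial cells in the values of Tbx5 was not tested.

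TBX20 is a T-box factor needed for the function of mature CMs. Tbx20 (chromosome 9, 24718138 to 24774303) was at 116 and 90.4 CPM in SRF-OE replicates 2 and 3, at 74.6 CPM in the library labelled GFP1, and at 129 and 147 CPM in GFP replicates 2 and 3. GFP1 held the lowest level of all 5 libraries, so Tbx20 is a member for which GFP1 was outside the range of both groups' other libraries. Its log2 fold change was -0.18 ± 0.29 (SE) over 5 libraries (95% interval -0.88 to 0.51, edgeR adjusted p = 0.777). Without GFP1 the groups no longer overlapped, and it was -0.42 ± 0.16 (SE) with a 95% interval of -0.80 to -0.03 and an edgeR adjusted p of 0.153, short of the cutoff. Its direction turned without GFP replicate 3, where the value was 0.01.

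Gata4 and Gata6, the zinc finger partners of SRF, differed from each other in how their libraries lay. Gata4 was at 247 and 309.8 CPM in SRF-OE replicates 2 and 3, at 281 CPM in the library labelled GFP1, and at 334 and 352 CPM in GFP replicates 2 and 3. Both SRF-OE libraries were lower than GFP replicates 2 and 3, and GFP1 fell between the SRF-OE libraries. For Gata4 the log2 fold change was -0.21 ± 0.16 (SE, 95% interval -0.61 to 0.18, edgeR adjusted p = 0.553) over 5 libraries and -0.29 ± 0.15 (SE, 95% interval -0.67 to 0.08, adjusted p = 0.257) over 4. Gata6 was at 134 and 82.2 CPM in SRF-OE, at 99.3 CPM in GFP1 and at 130.0 and 142 CPM in GFP replicates 2 and 3. SRF-OE replicate 2 thus lay among the controls in Gata6 and SRF-OE replicate 3 held the lowest level, and the log2 fold change of -0.19 ± 0.25 (SE, edgeR adjusted p = 0.724) turned to 0.11 without SRF-OE replicate 3. The fit without GFP1 gave -0.32 ± 0.23 (SE, edgeR adjusted p = 0.401). Of the summed CPM per kb of both genes, Gata4 made up 63.4% in SRF-OE replicate 2, 78.0% in SRF-OE replicate 3 and between 70.0% and 72.7% in the 3 GFP libraries, so the SRF-OE libraries lay on either side of the controls. Gata4 is on chromosome 14 (63198922 to 63271692) and Gata6 on chromosome 18 (11052064 to 11085635), where 93 bp of exon are shared with 1010001N08Rik on the other strand.

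Nkx2-5, the homeobox gene of the CM lineage, on chromosome 17 (26838664 to 26845009), had libraries close together in both groups. It was at 63.5 and 66.6 CPM in SRF-OE replicates 2 and 3, at 72.0 CPM in the library labelled GFP1 and at 72.9 and 75.1 CPM in GFP replicates 2 and 3. Every SRF-OE library lay below every GFP library, GFP1 included. The means were 65.1 ± 2.19 CPM (SD, n = 2) and 73.4 ± 1.60 CPM (SD, n = 3), a log2 fold change of -0.17 ± 0.11 (SE) with a 95% interval of -0.44 to 0.09 and an edgeR adjusted p of 0.476. Without GFP1 it was -0.18 ± 0.12 (SE, edgeR adjusted p = 0.362). Over the 17 alternatives the value stayed between -0.22 and -0.12.

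The MEF2 genes encode MADS-domain factors whose activity is held down by class II histone deacetylases and raised by calcium signalling. Mef2d was at 91.8 and 107 CPM in SRF-OE replicates 2 and 3, at 117 CPM in the library labelled GFP1 and at 124 and 119 CPM in GFP replicates 2 and 3. Like Nkx2-5, it was lower in each SRF-OE library than in each GFP library. Its log2 fold change was -0.27 ± 0.12 (SE, 95% interval -0.56 to 0.02, edgeR adjusted p = 0.374) over 5 libraries and -0.28 ± 0.13 (SE, adjusted p = 0.207) over 4. Mef2a was at 201 and 171 CPM in SRF-OE, at 187 CPM in GFP1 and at 241 and 199 CPM in GFP replicates 2 and 3, and the groups overlapped in both fits. For Mef2a the log2 fold change was -0.16 ± 0.16 (SE, edgeR adjusted p = 0.629) and, without GFP1, -0.23 ± 0.15 (SE, adjusted p = 0.356).

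Mef2c was the flattest of the members. Its level was 102 and 94.8 CPM in SRF-OE, 100.4 CPM in the library labelled GFP1 and 97.0 and 99.9 CPM in GFP replicates 2 and 3. The log2 fold change was -0.01 ± 0.11 (SE, edgeR adjusted p = 0.976) with a 95% interval of -0.27 to 0.26, and without GFP1 it was 0.01 ± 0.11 (SE, 95% interval -0.27 to 0.28). The sign carries no information here, since it turned in 8 of 17 alternatives, all between -0.07 and 0.06.

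Within the MEF2 family, Mef2a made up most of the summed CPM per kb in every library, with 57.0% and 50.7% in SRF-OE and 50.8%, 56.3% and 52.0% in GFP replicates 1, 2 and 3. Mef2d held 30.4% and 37.1% in SRF-OE and 33.8% to 37.2% in GFP, and Mef2c 12.7% and 12.3% in SRF-OE and 9.91% to 12.0% in GFP. The order of the 3 genes was the same in all 5 libraries, and only the small share of Mef2c was higher in both SRF-OE libraries than in all GFP libraries. Mef2a (chromosome 7, 67231163 to 67372858) shares 302 bp of exon with Lysmd4, which had 488 to 879 reads per library, and Mef2d (chromosome 3, 88142372 to 88172086) shares 531 bp with 1700113A16Rik, which had 102 to 343. Both partners lie on the opposite strand, and their reads cannot be told apart from those of the MEF2 genes in the shared stretches. Mef2c lies on chromosome 13, from 83504034 to 83667080.

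Over all members, 0 of 9 passed the adjusted p cutoff in the 5 libraries as labelled, where 0% of 13754 tested genes did. Without GFP1, 0 of 9 passed, against 2.95% of 13397 tested genes. At an unadjusted p under 0.05 there were 0 of 9 over 5 libraries (13.9% of all tested genes) and 2 of 9 over 4 libraries, Hand2 higher and Tbx20 lower (28.3% of all tested genes). The groups did not overlap for 2 of 9 members over 5 libraries, Nkx2-5 and Mef2d, both lower in SRF-OE, where 17.3% of tested genes were lower in this way, and for 0 of 9 in the higher direction, where 16.1% were. Over 4 libraries there was no overlap for Gata4, Nkx2-5, Mef2d and Tbx20 on the lower side, 4 of 9 against 30.2% of tested genes, and for Hand2 on the higher side, 1 of 9 against 30.8%. The log2 fold change was below 0 for 8 of 9 members over 5 libraries, with Mef2c above 0 instead under upper quartile scaling, and for 46.7% of all tested genes. The median was -0.18 for the 9 members and 0.03 for all tested genes, and without GFP1 it was -0.28 and 0.04.

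**Figure D3:**
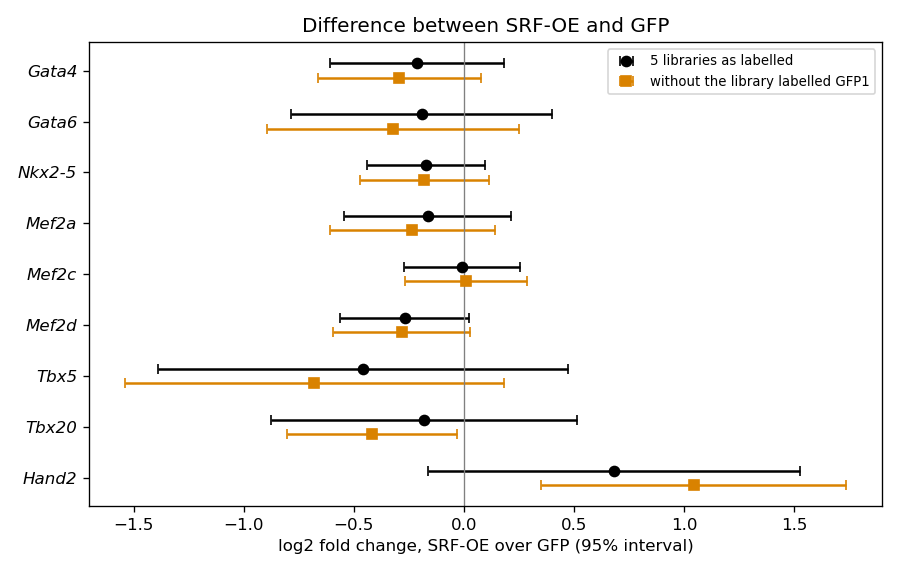
Log2 fold change of SRF-OE over GFP for the 9 tested factors, with 95% intervals, over the 5 libraries as labelled (black circles) and without the library labelled GFP1 (orange squares). All 9 intervals of the 5 libraries include 0, and without GFP1 those of Hand2 (0.35 to 1.73) and Tbx20 (-0.80 to -0.03) do not.

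Several members differed between libraries of the same group by as much as between the groups. SRF-OE replicate 3 minus SRF-OE replicate 2 was -1.02 on the log2 scale for Tbx5, -0.71 for Gata6, 0.73 for Hand2 and -0.35 for Tbx20. It was smaller for Gata4 (0.33), Mef2a (-0.23), Mef2d (0.22), Mef2c (-0.11) and Nkx2-5 (0.07). GFP replicate 3 minus GFP replicate 2 was -0.50 for Tbx5, 0.43 for Hand2 and -0.28 for Mef2a, and between -0.05 and 0.18 for the other 6. Between the SRF-OE libraries, Hand2 differed about as much as it did between the groups over 5 libraries. By the same measure Tbx5, Gata6, Tbx20, Gata4, Mef2a and Mef2c differed more, and Mef2d and Nkx2-5 less.

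The library labelled GFP1 lay between the 2 SRF-OE libraries for 6 of 9 members, Gata4, Gata6, Mef2a, Mef2c, Tbx5 and Hand2. For Nkx2-5 and Mef2d it lay between the groups, and for Tbx20 below all others. The libraries also differed in the sex of the mice as read from Xist and Ddx3y, with SRF-OE replicate 2 and GFP replicate 2 female and the other 3 libraries male, so that only 1 SRF-OE library stands for each sex and no test within a sex was possible. Between the female libraries the log2 difference, SRF-OE minus GFP, was 0.85 for Hand2, and between SRF-OE replicate 3 and GFP replicate 3 it was 1.15. SRF-OE replicate 3 against the male library labelled GFP1 gave 0.49, so Hand2 was higher in each of these pairs. For Tbx5 the same pairs gave -0.49, -1.00 and -0.48, and for Nkx2-5 -0.20, -0.17 and -0.11, lower in each pair. Gata6 went 0.05 in the female pair and -0.79 in SRF-OE replicate 3 against GFP replicate 3, opposite ways. Against GFP replicates 2 and 3, 6 of 9 members were lower in both sexes, Hand2 was higher in both, and Gata6 and Mef2c were mixed. For the counts of members in this paragraph no share over all tested genes was computed, so none is read as particular to the members.

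Markers of other cell types were present in every library. In bulk RNA, fewer cells of a type and less RNA per cell cannot be told apart. The 17 fibroblast markers summed to 1306 and 823 CPM in SRF-OE and to 559 to 791 CPM in GFP. Of these markers, 15 of 17 were higher in both SRF-OE libraries than in GFP replicates 2 and 3, against 30.8% of tested genes. With GFP1 included, 6 of 17 were higher in this way, against 16.1% of tested genes. Hand2 was at 27.8 and 46.1 CPM in SRF-OE replicates 2 and 3. The 19 endothelial markers summed to 1486 CPM in SRF-OE replicate 2, 1233 CPM in the library labelled GFP1 and 594 to 609 CPM in the other 3 libraries, and 19 of 19 were higher in the first than in the second SRF-OE library. The 12 CM markers summed to 113551 and 100427 CPM in SRF-OE and to 115754 to 169114 CPM in GFP. The 12 mural markers summed to 1314 and 1152 CPM in SRF-OE and 1259 to 2057 CPM in GFP, but 10 of 12 had a log2 fold change above 0 over 5 libraries (median 0.46). Acta2, the most abundant of them, was at 530.3 and 372 CPM in SRF-OE and at 463 to 1464 CPM in GFP. Epicardial markers summed to 29.7 and 12.4 CPM in SRF-OE replicates 2 and 3 against 10.0 to 11.2 CPM in GFP, and leukocyte markers to 53.1 and 20.2 against 16.1 to 41.8 CPM. No marker of these lists was at 0 in all libraries. The part of these cells in the levels of Gata4, Mef2c, Tbx20 and Hand2 was not tested.

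The genes around the 10 factors were read from the same fits in lists of other cardiac transcription factors, nuclear cofactors, the kinases and phosphatases upstream of MEF2, and cardiac genes known as targets. Over 5 libraries 0 genes of any list passed the cutoff in edgeR, as for all tested genes. Without GFP1, Nfatc4 rose among 34 tested other factors and Ankrd1 rose among 24 cofactors. Camk2b fell among 22 genes of MEF2 signalling, and Kcnj2 fell among 44 target genes. In that fit 2.95% of all tested genes passed. With upper quartile scaling or a minimum of 10 counts per library, also without GFP1, 0 genes of each list passed. Other settings called more. Without GFP1, DESeq2 called 21 of 44 target genes lower and 0 higher (833 and 853 of 13521 genes). No filter called 23 lower and 6 higher (1303 and 1660 of 21407 genes). Over 5 libraries DESeq2 called 11 target genes lower (213 of 1079 genes), and a block for the replicate number 9 (432 of 13754).

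Nfatc4, a factor activated by calcineurin that works with GATA4, was at 5.26 and 10.1 CPM in SRF-OE, 4.09 CPM in the library labelled GFP1, and 0.963 and 0.789 CPM in GFP replicates 2 and 3. Its log2 fold change was 3.11 ± 0.44 (SE, edgeR adjusted p = 0.0473) without GFP1 and 1.95 (adjusted p = 0.354) with it, and it rests on 10 and 21 reads in the lowest libraries. Ankrd1, a titin-binding repressor that also enters the nucleus, was at 1281 and 2105 CPM in SRF-OE, 1121 CPM in GFP1 and 577 and 636 CPM in the other GFP libraries. The log2 fold change of Ankrd1 was 1.49 ± 0.26 (SE, edgeR adjusted p = 0.0499) without GFP1 and 1.12 ± 0.35 (SE, edgeR adjusted p = 0.353) with it. Camk2b encodes a calcium/calmodulin-dependent kinase subunit of the family that sends histone deacetylases out of the nucleus. It was at 9.31 and 6.65 CPM in SRF-OE, 12.4 CPM in GFP1, and 22.9 and 23.5 CPM in GFP replicates 2 and 3. The log2 fold change of Camk2b was -1.54 ± 0.22 (SE, edgeR adjusted p = 0.0473) without GFP1 and -1.30 ± 0.34 (SE, edgeR adjusted p = 0.353) with it. For all 3 genes GFP1 lay outside the range of GFP replicates 2 and 3, on the side of SRF-OE.

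Among the target genes, Kcnj2, the inward rectifier potassium channel, was at 46.7 and 32.7 CPM in SRF-OE, 59.4 CPM in GFP1 and 96.8 and 83.4 CPM in GFP replicates 2 and 3. The log2 fold change of Kcnj2 was -1.18 ± 0.20 (SE, edgeR adjusted p = 0.0496) without GFP1 and -1.01 ± 0.26 (SE, edgeR adjusted p = 0.353) with it. In these libraries the summed CM markers were also lower in SRF-OE, as given above, and their part in the result was not tested. The lists of target genes and CM markers share genes, so their values are not separate observations. Both lists had the same median log2 fold change, -0.43 over 5 libraries and -0.55 without GFP1.

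As a description of whole lists, the median log2 fold change of the other cardiac factors was 0.18 over 5 libraries and 0.32 without GFP1, that of the cofactors -0.09 and -0.19, that of MEF2 signalling -0.08 and -0.06, and that of the target genes -0.43 and -0.55. The medians of all tested genes were 0.03 and 0.04. Among all tested genes, 6.35% were higher and 7.59% lower at an unadjusted p under 0.05 over 5 libraries, and 14.4% and 14% without GFP1. Of the target genes, 0 were higher and 10 of 44 lower at an unadjusted p under 0.05 over 5 libraries, and 1 and 20 without GFP1. The other factors went 6 of 34 higher and 0 lower, and 9 and 2 without GFP1. For cofactors these counts were 2 higher and 3 lower of 24, then 4 and 4, and for MEF2 signalling 1 higher and 2 lower of 22, then 0 and 5.

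**Figure D4:**
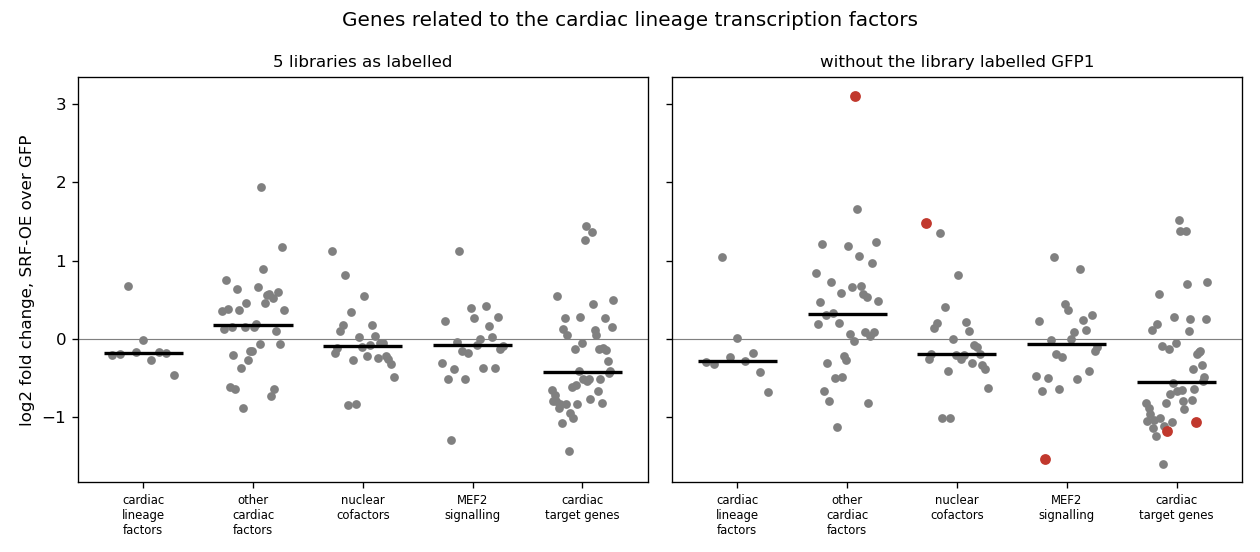
Log2 fold change of SRF-OE over GFP for the tested genes of 5 lists, over the 5 libraries as labelled (left) and without the library labelled GFP1 (right). Each dot is a gene, red where its edgeR adjusted p was under 0.05, and bars are list medians, which run from -0.43 for target genes to 0.18 for other cardiac factors on the left.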

How the data were processed

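Per the labels, 10 ng of total RNA from sorted CMs was amplified with the SMART-Seq v4 kit and made into libraries with Nextera XT. Reads were aligned by the authors with STAR (genome mm10) and counted with FeatureCounts, and the deposited values are raw counts per gene, not normalized (the submitters' processing notes list CASAVA 1.8, STAR 2.5.3a and Subread 1.5.2). Settings for strand and multiply mapped reads are not given in the sources used here. Columns were assigned by header name. The deposited column headed SRF-OE replicate 1 holds gene lengths, with 0 zeros, so 5 of 6 libraries had counts. No library was moved to another group because of its values, and 0 columns of sample values were left unused.

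Counts were fitted with edgeR 4.0.16 in R 4.3.3 (filterByExpr, TMM, glmQLFit, glmQLFTest), with Benjamini-Hochberg adjustment over all tested genes and a cutoff of 0.05. For the SE, the log2 fold change was divided by the root of its quasi-likelihood F, and 95% intervals come from the same fit. CPM used the TMM factors of the 5 libraries. The limit of a count of 0 was set at 3 counts per library and covers counting error only. Gene positions and overlaps are from the GRCm38 annotation.

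The alternatives were DESeq2 1.42.0, edgeR with upper quartile scaling or with the size factors of DESeq2, no filter on low counts, a minimum of 10 counts per library, a block for the replicate number, and the omission of each library in turn. DESeq2, upper quartile scaling, no filter, the minimum of 10 counts and the block were also run without GFP1. Sex as a term was added after seeing the data. The 10 genes and all lists were chosen with earlier results of these data known. The genes named are the 10 members, Srf, the genes of related lists past the cutoff in either fit, except 1 that is not reported here, and overlapping genes. Others are marked as chosen after their values were seen. No set test was run. Since 5 libraries are too few for a correlation, none was computed between a member and another gene. The atrial genes were set beside Tbx5 by the order of their libraries only.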

Additional observations from a re-analysis of the deposited data

How the results depend on the processing

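Of the 9 tested factors, Gata4, Mef2a, Mef2d, Nkx2-5, Tbx5 and Hand2 kept their direction in all 17 alternatives. The exceptions were Gata6, Tbx20 and Mef2c. When each library was left out, Gata6 ranged from -0.59 to 0.11 (without SRF-OE replicate 3), Tbx20 from -0.42 to 0.014 (without GFP replicate 3) and Mef2c from -0.066 to 0.037 (without SRF-OE replicate 3). Mef2c was also at 0.040 with upper quartile scaling and 0.015 with a minimum of 10 counts per library. Without GFP1 these settings gave it 0.065 and 0.033. Leaving out an SRF-OE library leaves 1, which is assumed to vary like the GFP libraries. The cause of these turns was not tested.

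The number of factors called depended on the setting only for Hand2 and Tbx5. Hand2 was the 1 member called higher with GFP1 left out in DESeq2 (adjusted p = 0.00694) and with no filter (7.92e-06), and Tbx5 was the 1 called lower with GFP1 left out and no filter (0.00385). Leaving out each library in turn called 0 members each time. Over all genes, 0 were called higher and 0 lower by edgeR, and 11 and 213 by DESeq2, which gave an adjusted p to only 1079 genes and 2 members. Leaving out each library gave 0 to 265 higher and 0 to 130 lower. With GFP1 left out, calls were 853 and 833 with DESeq2, 88 and 9 with upper quartile scaling, 1660 and 1303 with no filter, and 55 and 9 with at least 10 counts. The median log2 fold change of the 9 factors ranged from -0.28 to -0.05 when each library was left out.

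The replicate numbers are shared by both groups, but nothing in the labels says that a number marks a litter or day. Over 5 libraries the deviations of same-numbered libraries correlated at 0.37 for number 2 and -0.06 for number 3. Without GFP1 the value was 0.20 for both numbers, which are then the same by construction. Both female libraries carry number 2. Only GFP1 carries number 1, so a block for the number takes up all that sets this library apart. The block fit over 5 libraries therefore rests on the same libraries as the one without GFP1, and the 2 are not separate results. A fit with this block called 582 genes higher and 432 lower over 5 libraries, and 547 and 392 with GFP1 left out. Hand2 was then the 1 member called higher (adjusted p = 0.0281, and 0.0316 with GFP1 left out), and Mef2c was at 0.00076 and 0.0065. With sex as a term, added after seeing the data, Hand2 was at 0.81 (adjusted p = 0.285) and no gene was called.

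With 2 libraries against 2 or 3, the intervals of the 9 factors are wide beside their differences. A missed cutoff does not show equal levels.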

Other observations

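Some regulators of the lists above were not described there gene by gene, and those tested are already part of the medians and counts of their lists. The choice was made with their values in view, and none of them passed the edgeR cutoff in either fit. Myocd, which encodes the SRF coactivator myocardin, was at 275 and 419 CPM in SRF-OE replicates 2 and 3, 215 CPM in the library labelled GFP1, and 205 and 236 CPM in GFP replicates 2 and 3, so that both SRF-OE libraries were above all GFP libraries. Irx4, a homeobox gene of ventricular CMs, was at 47.0 and 22.5 CPM in SRF-OE, 40.5 CPM in GFP1, and 72.9 and 78.9 CPM in the other GFP libraries. Cited2, a cofactor of TFAP2 proteins, was at 49.1 and 104.8 CPM in SRF-OE, 70.0 CPM in GFP1, and 31.2 and 29.0 CPM in GFP replicates 2 and 3. Isl1, a progenitor factor of the second heart field, was at 0.694 and 0.350 CPM in SRF-OE and at 0.046 to 0.079 CPM in GFP, too low to be tested.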
